A study of Mus musculus with 12 samples.

Results

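Vwf, Calcrl, Pecam1, Kdr, Tek, Tie1, Ramp2 and Flt1 mark the endothelium, the cells that line blood vessels, and their transcripts were followed through primary tumours and lung metastases of NR-S1, a squamous cell carcinoma of the mouse. The 8 genes were taken by symbol from the gene names of the arrays, where they are 8 of 27670 genes or other features and are covered by 18 probes printed as 45 spots. Of these probes, 4 were well above background on no array: the third Vwf probe, the second Pecam1 probe, the second Kdr probe and the dimmest Flt1 probe. The brightest probe of each gene was well above background in every RNA on every array, so all 8 genes were measured in all 11 comparisons.

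NR-S1 was grown in the hind leg of male C3H/HeMsNrs mice, and treated tumours received gamma rays (8 Gy) or carbon ions (5 Gy) at a diameter of 7.5 mm. The primaries were collected 1 week after they had reached that diameter, and lung metastases 2 weeks after the primary tumour had reached it, in other mice. This gave 6 RNAs: a primary and a metastasis each from unirradiated animals, after gamma rays and after carbon ions, where it was the leg tumour and not the lung that received the dose. The labels give no genetic change to mice or tumour, call the material clone 1, and give every array the replicate number 1. Laser microdissection was used to take tumour cells, and their RNA was amplified linearly, and the labels do not say how many animals went into an RNA. The 12 two-colour arrays formed 6 dye swaps, in which the same pair of RNAs was hybridised on 2 arrays with Cy3 and Cy5 exchanged. Because each condition had 1 RNA, differences could not be checked against replicates and p-values were not computed. Errors are SDs over the 2 dye orientations, and they leave out the spread between animals.

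The vascular endothelium reads growth signals through receptor tyrosine kinases. Kdr (VEGF receptor 2) carries most of the growth and permeability signal of VEGF-A, and Flt1 (VEGF receptor 1) binds VEGF-A and placental growth factor tightly and in its soluble form acts as a decoy. Tek (TIE2) is the receptor of the angiopoietins and keeps vessels quiescent, with Tie1 as its partner that binds no angiopoietin with high affinity by itself. Calcrl is a G protein-coupled receptor whose ligand is set by its partner, and with Ramp2 it is the receptor of adrenomedullin, which keeps the endothelial barrier tight. Pecam1 (CD31) is an adhesion molecule of endothelial junctions that platelets and leukocytes carry too. Vwf, the von Willebrand factor, is stored in endothelial Weibel-Palade bodies and in platelet granules and tethers platelets to injured vessels. Lung is rich in capillaries, and both Calcrl and Ramp2 are known to be abundant there.

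The stretches before the transcript starts of a few receptors are shown first, as background. They differ in base composition and in the letters bound by ETS factors, a family that acts on many endothelial genes. What part such letters had in the ratios below was not tested. RefSeq promoters of GRCm38.p6 were matched for 5 of the 8 genes. Those printed are the ones that hold AGGAAG, and those of Kdr and Tek, which do not hold it, are not printed. The 250 bases before the start of Calcrl (chr2:84425267-84425516, minus strand), of Flt1 (chr5:147726012-147726261, minus strand) and of Tie1 (chr4:118489850-118490099, minus strand) are written 5′ to 3′ along the gene, with AGGAAG on either strand in capitals.
Calcrl: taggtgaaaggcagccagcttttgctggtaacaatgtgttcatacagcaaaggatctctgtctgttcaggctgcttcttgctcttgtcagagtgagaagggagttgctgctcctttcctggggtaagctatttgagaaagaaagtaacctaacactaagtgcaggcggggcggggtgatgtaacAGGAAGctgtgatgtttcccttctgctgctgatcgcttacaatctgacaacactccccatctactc
Flt1: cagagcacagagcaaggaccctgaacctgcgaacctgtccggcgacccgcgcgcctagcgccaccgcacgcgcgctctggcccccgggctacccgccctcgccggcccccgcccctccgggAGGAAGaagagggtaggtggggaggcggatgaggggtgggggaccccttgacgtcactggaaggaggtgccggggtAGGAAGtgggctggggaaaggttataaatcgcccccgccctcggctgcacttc
Tie1: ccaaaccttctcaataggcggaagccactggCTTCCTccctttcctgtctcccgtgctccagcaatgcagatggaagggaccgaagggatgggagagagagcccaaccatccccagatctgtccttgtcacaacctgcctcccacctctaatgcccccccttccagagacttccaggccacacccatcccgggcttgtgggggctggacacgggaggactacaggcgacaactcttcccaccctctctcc
AGGAAG, a longer form of the ETS core, occurred once in Calcrl and Tie1, 2 times in Flt1 and 0 times in the promoters of Kdr and Tek, and 29.2% of 27025 promoters of the same length hold it on either strand. The core GGAA, which lies inside it, occurred 3 times in Calcrl, 2 in Tek, 7 in Tie1, 4 in Kdr and 4 in Flt1, and 93.4% of promoters hold it. The Sp1 box GGGCGG was found in Calcrl, Kdr and Flt1 (32.9% of promoters) and TATAAA in Flt1 (13.0%). The letters AGATAA, for factors of the GATA family, TGTTTAC, for forkhead factors, CACGTG, the E-box, and its inner part ACGTG, the core of hypoxia response elements, were in none of the 5 windows, and 10.3%, 3.09%, 6.05% and 16.6% of promoters hold them. Base composition ran from 48.4% G and C in Calcrl and 51.2% in Tek to 60.4% in Tie1, 61.6% in Kdr and 70.4% in Flt1. A match is only a match of letters, not a measured site.

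The first comparison asked how RNA of the lung metastasis differed from that of the primary tumour without radiation. All 8 endothelial genes rose, against 10.4% of the 17103 genes measured, and their median log2 ratio was 2.51, against 0.047 for all genes. These genes and the gene lists below were chosen with earlier results of these data known, so such counts describe them and test nothing. Here and below "rose" and "fell" stand for a log2 ratio of at least 1 in size, a 2-fold difference, reached in one direction on both arrays of a swap. Fewer cells of a type and less RNA per cell cannot be told apart in such RNAs. The plot of ratios for the 8 genes shows the metastases well above the primaries for each of them.

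**Figure D1:**
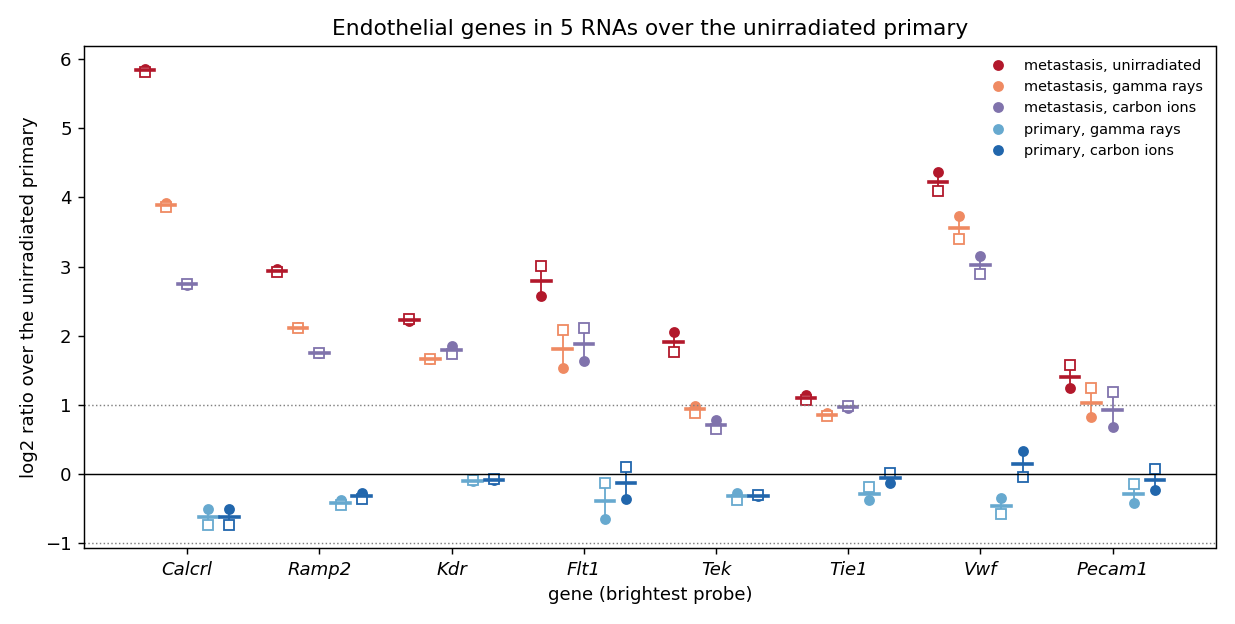
Log2 ratio over the unirradiated primary (vertical axis) of the brightest probe of each gene, in 5 RNAs given by colour; filled circles are arrays with the named RNA in Cy5, open squares arrays with it in Cy3, and short bars their mean, with dotted lines at the 2-fold rule. The unirradiated metastasis is the highest RNA for all 8 genes, from 1.10 for Tie1 to 5.84 for Calcrl, and no primary reaches the rule.

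The adrenomedullin receptor had the highest ratio of the set. Calcrl had a log2 signal of 14.57 and 14.58 in the unirradiated metastasis on its 2 arrays, and between 8.72 and 9.01, with a median of 8.85, in the unirradiated primary on 10 arrays. The metastasis stood far above every primary array, with no overlap. Arrays that hold the same RNA are repeats of it. Here and below a gap between arrays therefore shows how well arrays repeat, not a spread between animals. How many other genes separate in this way was not counted. The ratio was 5.86 with the metastasis in Cy5 and 5.81 with it in Cy3, a mean of 5.84 ± 0.03 or 57.2-fold. A second, dimmer Calcrl probe was above background in the unirradiated and the gamma metastasis but on no array of a primary or of the carbon metastasis, and there the metastasis was at least 1.98-fold higher than the unirradiated primary. That bound sets the dim RNA at the lowest signal among probes well above background on each array, or at the probe's own signal where that was higher. Ramp2, the partner that makes Calcrl an adrenomedullin receptor, had signals of 13.97 and 14.08 in the metastasis and of 10.70 to 11.17 (median 10.80) in the primary. Its ratios of 2.96 and 2.92 gave 2.94 ± 0.03, a 7.66-fold difference, and the groups of arrays did not overlap.

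By their brightest probes both VEGF receptors rose by similar amounts. Kdr, printed 10 times per probe, had signals of 10.55 on both arrays of the metastasis and of 8.28 to 8.37 (median 8.32) in the primary. Its ratio was 2.23 ± 0.01, or 4.69-fold, from 2.22 and 2.24 in the separate orientations. Flt1 stood at 12.63 and 12.78 in the metastasis and at 9.73 to 10.15 (median 9.95) in the primary, again without overlap. The Flt1 ratio of 2.79 ± 0.30 came from 2.58 and 3.01 and was 6.94-fold. In all 6 direct comparisons the brightest Flt1 probe read higher in the orientation with the named RNA in Cy3.

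Of the TIE receptors, Tek had the higher ratio. Tek signals were 9.37 and 9.15 in the metastasis and 6.96 to 7.38 (median 7.13) in the primary. The ratios of 2.06 and 1.77 gave 1.92 ± 0.21, a 3.78-fold difference. A second Tek probe lay near background and gave 0.17 and 0.12, so it added nothing beyond a bound of 1.10-fold. Tie1, with 9.01 and 9.23 in the metastasis and 7.77 to 8.16 (median 7.93) in the primary, had the lowest ratio of the set, 1.10 ± 0.05 or 2.15-fold. Even so its arrays did not overlap.

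The structural and stored products differed widely. Vwf signals were 13.37 and 13.23 in the metastasis against 8.28 to 9.14 (median 8.49) in the primary. The Vwf ratio was 4.23 ± 0.20, or 18.8-fold, from 4.37 and 4.09, and a second probe gave 3.91 ± 0.26. Pecam1, at 9.63 and 9.88 against 8.14 to 8.39 (median 8.31), rose by 1.41 ± 0.24, a 2.65-fold difference. For both genes every metastasis array lay above every primary array.

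**Figure D2:**
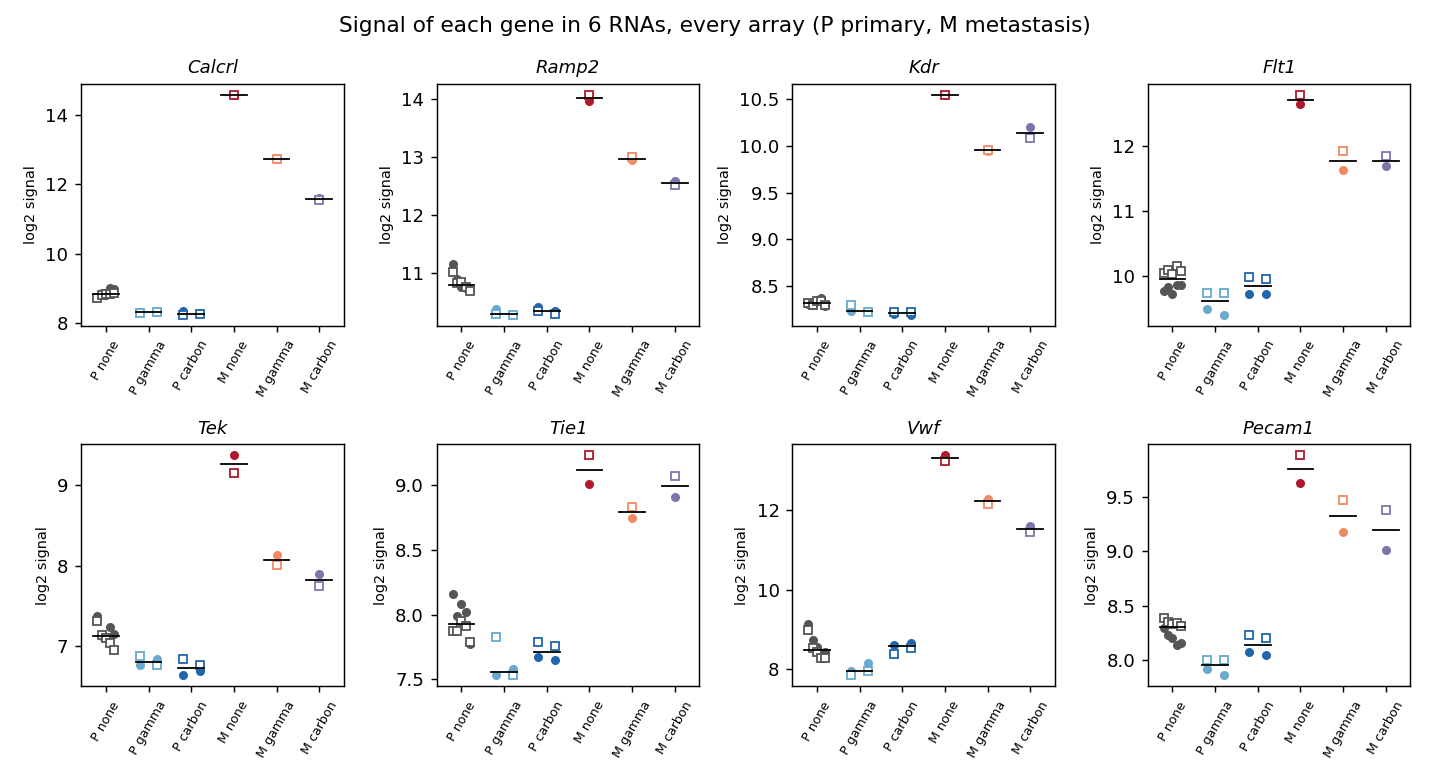
Normalised log2 signal (vertical axes, scaled separately) of the brightest probe of each gene in the 6 RNAs, 1 panel per gene; each point is 1 array, filled for Cy5 and open for Cy3, and the bar is the median. Arrays number 10 for the unirradiated primary, 4 for each irradiated primary and 2 for each metastasis. Arrays that hold the same RNA are repeats of it. Every metastasis array of these genes lies above every primary array, and how many other genes separate in this way was not counted.

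The signal of the same unirradiated primary RNA varied with the RNA that shared its array. Vwf in that RNA averaged 9.07 beside the unirradiated metastasis and 8.36 beside the irradiated primaries, and Ramp2 averaged 11.10 and 10.73. Tek averaged 7.34 and 7.10, a smaller gap. For Kdr the averages were 8.32 and 8.32, and for Calcrl 8.74 and 8.92. Markers of lung epithelium showed the same dependence: Sftpa1, Sftpb, Sftpc, Scgb3a2 and Ager gave a signal well above background for the unirradiated primary on all 6 arrays shared with a metastasis and on 0 of 4 shared with another primary. What part this had in the ratios of Vwf, Ramp2 and Tek was not tested.

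Other endothelial genes moved with the 8. Of 21 further endothelial markers measured, 16 rose in the unirradiated metastasis and none fell, with a median of 1.67. The highest were Icam2, an adhesion molecule for leukocytes, at 2.65 ± 0.21 and Cldn5, the tight junction claudin of vessels, at 2.49 ± 0.14, and the lowest was Cd34, a sialomucin of endothelium and progenitors, at -0.56 ± 0.02. Among genes of haemostasis and leukocyte adhesion 5 of 6 rose with a median of 1.85, among them Icam1 at 2.87 ± 0.04 and Vcam1 at 2.34 ± 0.08. P-selectin (Selp), which is stored with Vwf in Weibel-Palade bodies, stood at 0.86 ± 0.06. Of the arterial Notch and ephrin genes 3 of 7 rose, with Hey1, a Notch target, at 2.56 ± 0.13, the Notch ligand Dll4 at 1.52 ± 0.09 and the venous ephrin receptor Ephb4 at -0.30 ± 0.09. Genes typical of lung capillaries gave 3 of 8 higher: Car4, a carbonic anhydrase, at 3.13 ± 0.13, Tbx2, a transcription factor of lung mesenchyme and vessels, at 2.25 ± 0.19, and Gpihbp1, which holds lipoprotein lipase on capillaries, at 2.17 ± 0.03, while the endothelin receptor Ednrb stood at -0.58 ± 0.19. The lymphatic list held 4 measured genes, of which Lyve1, a hyaluronan receptor that some macrophages share, rose by 3.71 ± 0.21. Mmrn1 stood at 0.60 ± 0.01 and podoplanin (Pdpn) at -0.05 ± 0.25.

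Ligands of the receptors did not follow them. Of 8 VEGF and angiopoietin ligands none rose and 2 fell, where 1.69% of all 17103 genes measured fell. The 2 were Vegfa at -1.83 ± 0.19 and placental growth factor (Pgf) at -2.07 ± 0.23, and the list median was 0.03. Vegfb, Vegfc and Vegfd stood at -0.58, 0.49 and 0.33. The TIE2 agonist Angpt1 stood at -0.27, the context-dependent ligand Angpt2 at 0.42 and Angpt4 at 0.45. Among other receptors of these pathways Ptprb, the phosphatase that restrains TIE2, rose by 3.0 ± 0.23. The co-receptors Nrp1 and Nrp2 stood at 0.98 and 0.25, and Flt4 (VEGF receptor 3) at 0.21, near background.

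The peptide that Calcrl and Ramp2 bind was the lowest of its list. Adm (adrenomedullin) fell by 4.70 ± 0.23 on the log2 scale in the unirradiated metastasis, where its receptor genes rose. Adm2 fell to -1.51 ± 0.05 and Ramp3, the other adrenomedullin partner of Calcrl, to -1.23 ± 0.09. Ramp1, with which Calcrl binds the peptide CGRP, rose by 1.97 ± 0.04, and the CGRP genes Calca and Calcb were at least 2.22-fold and 2.27-fold higher there, since the unirradiated primary was not well above background for either on the arrays of this comparison. For the calcitonin receptor Calcr, likewise dim in that primary, the bound was 1.81-fold. The scavenger receptor Ackr3 stood at 0.79 and the CGRP receptor component Crcp at -0.21.

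Markers of other cells differed between the same RNAs. All 10 genes of lung epithelium rose (median 4.31), from Hopx at 2.19 ± 0.02 to Sftpa1 at 5.04 ± 0.71 and Sftpd at 7.63 ± 0.41. In the irradiated primaries 6 of these 10 were not well above background on any array. Sftpc stood at 4.85 ± 1.26 over the unirradiated primary, but was at least 5400-fold higher in the gamma metastasis than in the gamma primary. What part the partner-dependent signal of the unirradiated primary had in the sizes of the lung ratios was not tested. Of 8 macrophage markers 7 rose (median 1.77, Marco 5.38 ± 0.21, Mrc1 2.62 ± 0.26), and Mertk stood at 0.96. Platelet genes, whose cells also carry Vwf and Pecam1, had 3 of 9 members higher, with a median of 0.90. They were Gp9, which was at least 4.33-fold higher because the unirradiated primary was not well above background on either array, Treml1 at 2.09 ± 0.18, for which that primary passed background on 1 of 2 arrays, and Ppbp, while Gp1bb stood at 0.11. Pericyte genes had 2 of 7 higher (Higd1b 1.62 ± 0.33, Pdgfrb 1.18 ± 0.24) and 2 lower (Rgs5 -1.38 ± 0.17 and Abcc9). All 8 skeletal muscle genes fell (median -3.94), from Des at -2.52 and Ckm at -2.78 to Myl1 at -5.41. The labelled tumour cells were checked through 8 keratinocyte genes, all well above background in every RNA, with a median of -0.34 and none past the rule, from Krt16 at 1.15 ± 0.52 and Krt17 at 0.56 ± 0.85 down to Dsp at -0.81. What part lung tissue, macrophages, platelets or leg muscle had in the endothelial ratios was not tested.

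**Figure D3:**
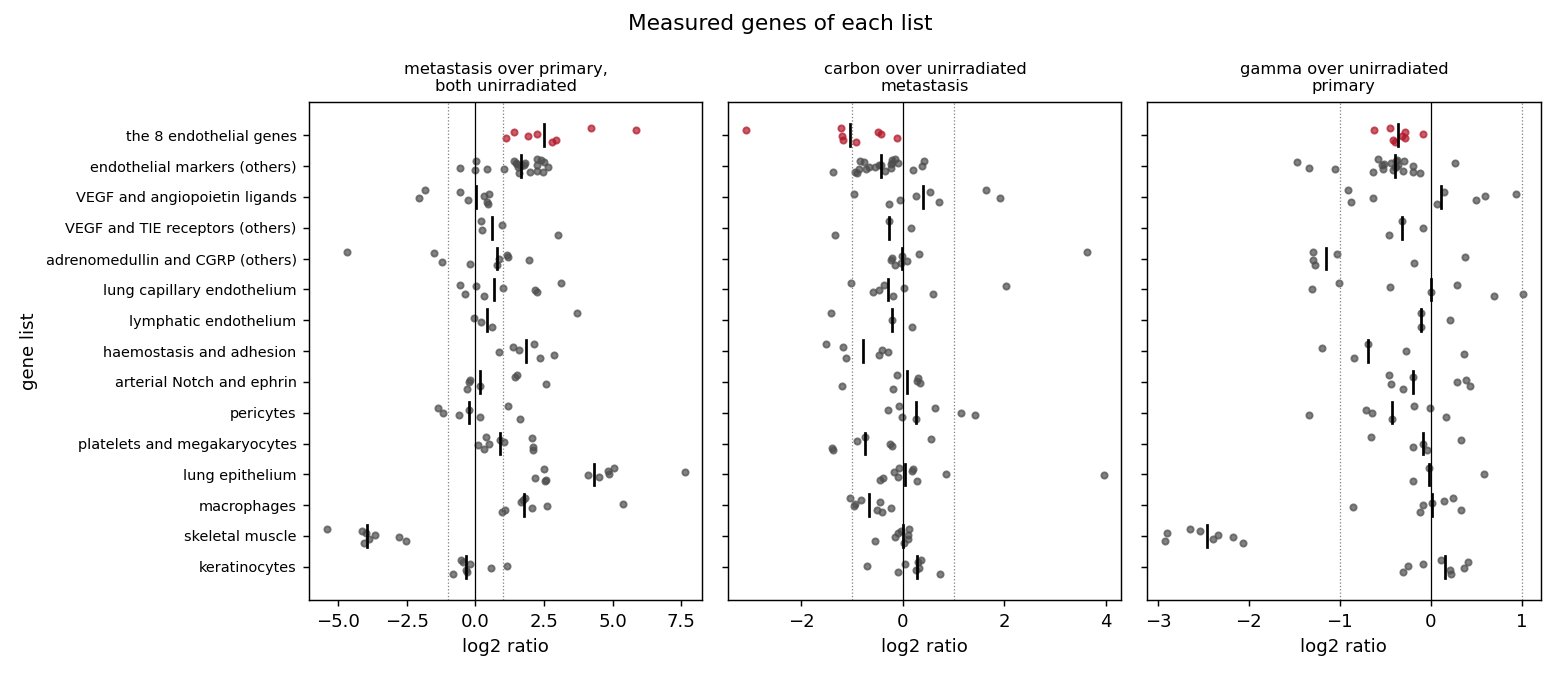
Log2 ratio (horizontal axes) of every measured gene of the 8 endothelial genes (red) and of 14 gene lists (grey), for the unirradiated metastasis over the unirradiated primary, the carbon over the unirradiated metastasis and the gamma-irradiated over the unirradiated primary; black bars are list medians and dotted lines the 2-fold rule. On the left the 8 genes have a median of 2.51, lung epithelium 4.31 and skeletal muscle -3.94. In the middle the 8 genes stand at -1.05 and lung epithelium at 0.05. On the right skeletal muscle stands at -2.47 and the 8 genes at -0.35. The lung epithelium values on the left and in the middle rest on a primary signal that varied with its partner, so they do not measure lung content.

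A second set of arrays addressed the primary tumour 1 week after radiation. None of the 8 genes rose or fell after gamma rays, where 2.23% of 15579 genes rose and 1.25% fell, and none did after carbon ions, where 3.9% of 15636 genes rose and 1.07% fell. After gamma rays all 8 ratios lay below 0 in both orientations, between -0.62 and -0.09 with a median of -0.35. After carbon ions 7 means lay below 0 and 4 genes did so in both orientations, with a median of -0.10. With median centring Kdr and Tie1 stood just above 0 after carbon ions, at 0.01 and 0.02. Means below 0 in both irradiated primaries were found for 7 of the 8 genes. The same held for 37.3% of the 15876 genes measured in the 3 metastasis comparisons, not all of which were measured in the primaries. All comparisons over the unirradiated primary share that RNA, so an error in it enters all of them.

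Calcrl had the lowest ratio in both, -0.62 ± 0.16 after gamma rays and -0.62 ± 0.16 after carbon ions. Its signals were 8.28 to 8.34 on 4 arrays after gamma rays and 8.24 to 8.35 on 4 arrays after carbon ions, all below the lowest of the 10 unirradiated arrays. These arrays repeat 1 RNA per condition, so such gaps do not show that conditions differ beyond the spread between animals. Ramp2 gave -0.41 ± 0.04 and -0.32 ± 0.06, also with no overlap between irradiated and unirradiated arrays. Tek gave -0.32 ± 0.06 and -0.31 ± 0.01. Kdr was nearest to 0, at -0.09 ± 0.01 and -0.08 ± 0.02, and its irradiated arrays (8.22 to 8.29 and 8.19 to 8.22) met the unirradiated ones only after gamma rays. Tie1 gave -0.28 ± 0.14 and -0.05 ± 0.10, Pecam1 -0.28 ± 0.20 and -0.08 ± 0.21, and Flt1 -0.39 ± 0.37 and -0.12 ± 0.33. For Tie1, Pecam1 and Flt1 the carbon value was within its SD of 0. Vwf stood at -0.45 ± 0.17 after gamma rays and at 0.15 ± 0.27 after carbon ions, with the separate orientations of the latter on either side of 0 (0.34 and -0.04).

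The arrays that held both irradiated primaries gave no gene of the 8 past the rule, where 0.884% of 15038 genes rose and 0.16% fell with carbon over gamma. Vwf had the highest of these ratios, 0.55 ± 0.23 from 0.71 and 0.38, and its second probe gave 0.31 ± 0.18. Flt1 stood at 0.26 ± 0.40, Pecam1 at 0.20 ± 0.20, Tie1 at 0.15 ± 0.05, Ramp2 at 0.03 ± 0.05, Kdr at -0.02 ± 0.02, Calcrl at -0.05 ± 0.03 and Tek at -0.07 ± 0.01. For Flt1, Pecam1, Ramp2 and, to the digits given, Kdr the SD was at least as large as the ratio.

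Among the other endothelial markers 2 of 21 fell in each irradiated primary, with medians of -0.39 and -0.37. They were Cldn5, at -1.47 ± 0.03 after gamma rays and -1.34 ± 0.05 after carbon ions, and Cd34, at -1.34 ± 0.05 and -1.05 ± 0.02. Procr, the endothelial protein C receptor, fell to -1.20 ± 0.16 and -2.10 ± 0.14, and Gpihbp1 fell after gamma rays (-1.31 ± 0.09) and stood at -0.35 after carbon ions. Of the ligands Vegfc and Vegfd rose after carbon ions, by 1.18 ± 0.00 and 1.65 ± 0.06, and stood at 0.94 and 0.60 after gamma rays. Vegfa stood at -0.91 ± 0.24 and -0.53 ± 0.22, and Angpt2 at -0.88 and -0.78. In the adrenomedullin list 4 of 6 measured genes fell after gamma rays, Adm at -1.29 ± 0.20, Ramp3 at -1.30 ± 0.08, Ackr3 at -1.27 ± 0.27 and Adm2 at -1.03 ± 0.02, and none passed after carbon ions. Fibin rose by 2.29 ± 0.05 after carbon ions, the pericyte channel Kcnj8 fell to -1.34 ± 0.08 after gamma rays, and Krt16 fell to -1.51 ± 0.35 after carbon ions. Skeletal muscle markers moved with the irradiated primaries, 8 of 8 lower after gamma rays (median -2.47) and 2 of 8 after carbon ions (median -0.93), and their part in the endothelial values was not tested.

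The third question was how metastases after irradiation of the leg tumour compared with the rest. Over the unirradiated primary, 5 of the 8 genes rose in the metastasis after gamma rays (8.82% of 17664 genes) and 5 in the metastasis after carbon ions (8.21% of 16283 genes), with medians of 1.74 and 1.78. In both cases these were Vwf, Calcrl, Kdr, Ramp2 and Flt1. Pecam1 (1.04 ± 0.29 and 0.93 ± 0.36), Tek (0.94 ± 0.07 and 0.72 ± 0.09) and Tie1 (0.86 ± 0.03 and 0.98 ± 0.02) were above 0 in both orientations and did not pass. Other endothelial markers had 13 of 21 higher and 1 lower (Cd34, -1.14) after gamma rays and 12 of 21 higher after carbon ions, with medians of 1.27 and 1.29. Set against the primary that had received the same radiation, all 8 genes rose after gamma rays (6.61% of 15497 genes) and 5 after carbon ions (5.73% of 15248 genes), with medians of 1.98 and 1.94. Calcrl gave 4.52 ± 0.11 and 3.37 ± 0.17 there, Vwf 4.02 ± 0.06 and 2.87 ± 0.08, and Ramp2 2.53 ± 0.03 and 2.07 ± 0.06. Flt1 and Kdr stood at 2.20 and 2.00 and at 1.76 and 1.88. Tek, Tie1 and Pecam1 passed after gamma rays (1.26, 1.15 and 1.32) and lay at 1.03 ± 0.11, 1.03 ± 0.08 and 1.01 ± 0.15 after carbon ions, with 1 orientation of each under the rule, and with an offset of 0 all 8 genes passed. With the mean of all probes of a gene, 4 genes passed after gamma rays and 3 after carbon ions over their own primaries, and 3 in each of these metastases over the unirradiated primary.

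Differences between metastases were taken by way of the primary they shared, from arrays with the same dye orientation. A dye effect cancels in such a difference, so its smaller SD is no sign of greater precision. For Vwf, Ramp2 and, by less, Tek the signal of the shared primary varied with its partner. What part this had in the differences between metastases was not tested. All 8 genes were lower in the gamma and the carbon metastasis than in the unirradiated one, in both orientations. Their medians were -0.74 after gamma rays and -1.05 after carbon ions, where all genes had -0.040 and -0.028. By the size rule 1 gene fell after gamma rays (1.45% of 16805 genes) and 4 after carbon ions (2.4% of 15948 genes). With the processed log ratio, median centring or scaling 2 genes fell after gamma rays, and with the mean of all probes 2 fell after carbon ions. The unirradiated metastasis was the highest of the 3 for 8 of 8 genes, for 43.7% of 15876 genes and for 75.9% of the 1761 genes that had risen in it. Choosing genes that are high in 1 RNA favours that order, and the 3 ratios share the primary.

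Calcrl fell furthest. Its signals were 14.57 and 14.58 in the unirradiated metastasis, 12.73 and 12.74 after gamma rays and 11.55 and 11.59 after carbon ions, a falling order without overlap. The differences were -1.94 ± 0.01 after gamma rays, or 3.85-fold, and -3.09 ± 0.04 after carbon ions, or 8.53-fold. Carbon over gamma gave -1.15 ± 0.05, the single gene of the 8 that fell in that comparison (1.01% of 16195 genes), and with median centring or scaling between arrays 0 genes fell there. By its dimmer probe Calcrl was at least 1.91-fold higher in the unirradiated than in the carbon metastasis. Ramp2 had the same order, with signals of 13.97 and 14.08, then 12.95 and 13.01, then 12.53 and 12.60. Ramp2 stood at -0.82 ± 0.02 after gamma rays and fell to -1.18 ± 0.03 after carbon ions.

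Vwf and Tek also fell after carbon ions. Vwf signals were 13.23 and 13.37 in the unirradiated metastasis, 12.16 and 12.27 after gamma rays and 11.45 and 11.59 after carbon ions. Its differences from the unirradiated metastasis were -0.67 ± 0.03 and -1.21 ± 0.02, and the second Vwf probe gave -1.05 ± 0.00 and -1.70 ± 0.13. Tek, at 9.15 and 9.37, then 8.01 and 8.13, then 7.75 and 7.90, gave -0.98 ± 0.13 and -1.20 ± 0.11. Both genes were lower in steps over the 3 RNAs, and no arrays of neighbouring RNAs overlapped.

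By their brightest probes the VEGF receptors were lower in both the gamma and the carbon metastasis, by similar amounts. Kdr signals were 10.55 on both arrays of the unirradiated metastasis, 9.95 and 9.96 after gamma rays and 10.08 and 10.20 after carbon ions, which gave -0.56 ± 0.01 and -0.43 ± 0.09. Flt1, at 12.63 and 12.78, then 11.62 and 11.91, then 11.68 and 11.84, gave -0.99 ± 0.09 and -0.92 ± 0.03. The Flt1 arrays of the gamma and carbon metastases overlapped. The second Flt1 probe was not lower, at 0.06 ± 0.08 and 0.46 ± 0.02, while the third gave -0.88 ± 0.19 and -0.79 ± 0.20. Tie1 (-0.24 ± 0.03 and -0.12 ± 0.07) and Pecam1 (-0.37 ± 0.05 and -0.48 ± 0.12) were within the rule after both, and for Pecam1 the SDs of the 3 ratios over the primary met.

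**Figure D4:**
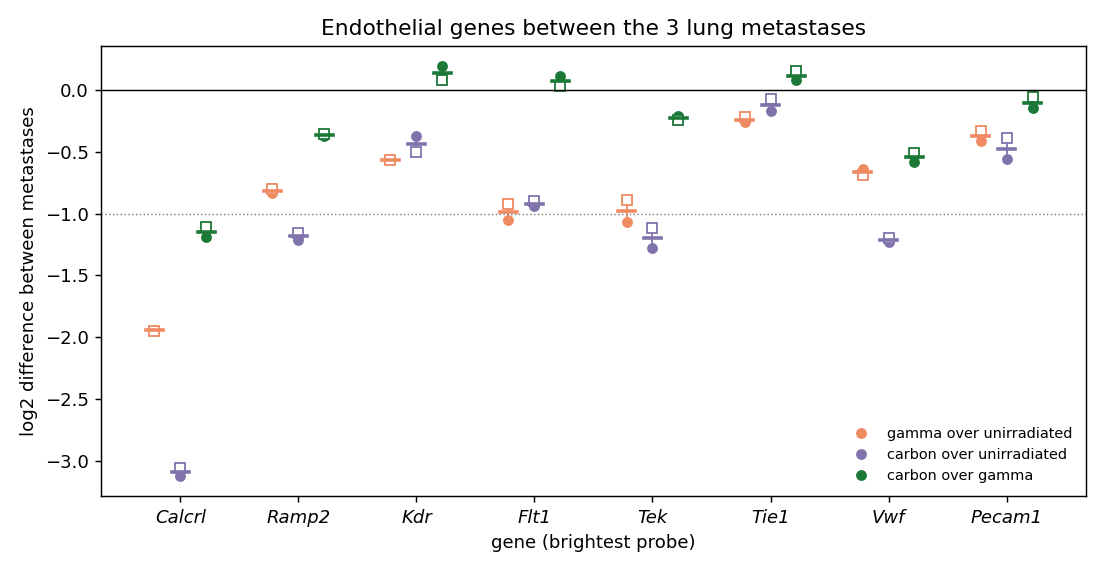
Log2 difference between lung metastases (vertical axis) for the brightest probe of each gene: gamma over unirradiated, carbon over unirradiated and carbon over gamma, with filled circles for the Cy5 and open squares for the Cy3 orientation and bars for their mean. Calcrl reaches -3.09 after carbon ions, Vwf, Ramp2 and Tek lie between -1.18 and -1.21, and Tie1 lies at -0.12.

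The order unirradiated, gamma, carbon held for the means of 5 of the 8 genes (Vwf, Calcrl, Pecam1, Tek and Ramp2), for 22.8% of 15876 genes and for 40.3% of the genes that had risen in the unirradiated metastasis. Kdr, Flt1 and Tie1 had carbon above gamma, by 0.13 ± 0.08, 0.07 ± 0.06 and 0.12 ± 0.05. Pecam1 stood at -0.10 ± 0.07, Tek at -0.22 ± 0.02, Ramp2 at -0.37 ± 0.01 and Vwf at -0.55 ± 0.05 in the same comparison. The unirradiated and the gamma metastasis lay on the first slide and the carbon metastasis on the second, so slide and carbon ions cannot be told apart there.

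Probes of one gene did not all follow this order. For Flt1 the third probe, named by the same RefSeq transcript as the brightest, gave 2.09 ± 0.25, 1.20 ± 0.07 and 1.30 ± 0.06 in the unirradiated, gamma and carbon metastasis over the primary, the order of the brightest probe. The second probe, named by another cDNA, gave 0.44 ± 0.03, 0.50 ± 0.11 and 0.90 ± 0.05, with the carbon metastasis highest. The remaining pair of probes, named by still other cDNAs, were at or near background. Flt1 is known to give shorter transcripts that encode the soluble receptor, and the files used here do not say which transcript end each probe covers.

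**Figure D5:**
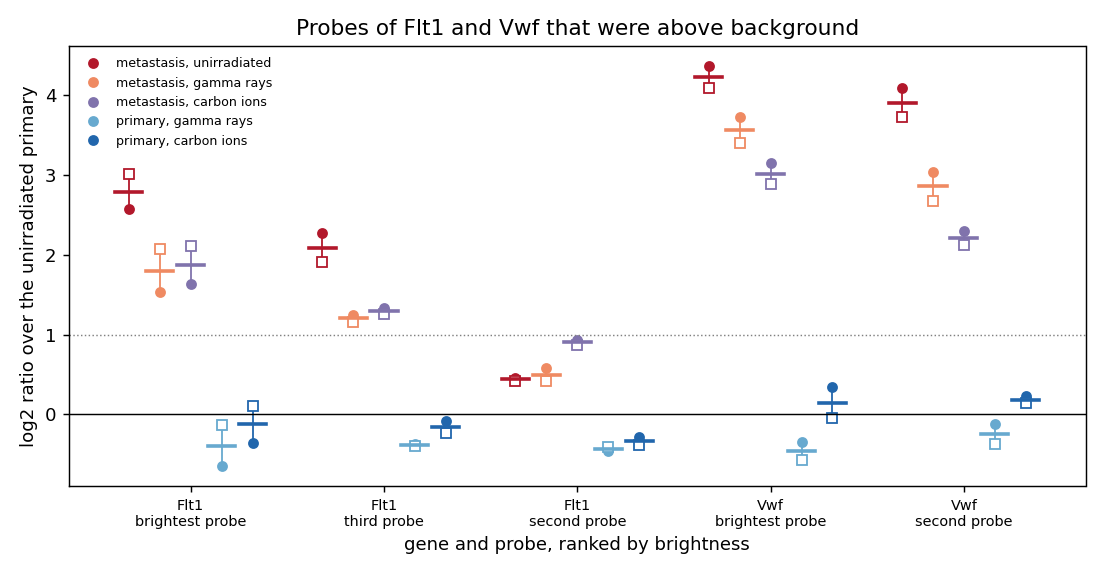
Log2 ratio over the unirradiated primary (vertical axis) for the Flt1 and Vwf probes that were above background, in 5 RNAs given by colour, with filled circles for Cy5, open squares for Cy3 and bars for the mean; the dotted line marks the 2-fold rule. For the second Flt1 probe the carbon metastasis (0.90) lies above the unirradiated one (0.44), while the other probes shown have the unirradiated metastasis highest.

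Other genes of the pathways moved between the metastases as well. Among further endothelial markers the medians were -0.54 after gamma rays and -0.43 after carbon ions, and 1 of 21 fell in each, Clec14a, a receptor of vessel sprouts, at -1.10 ± 0.07 and -1.38 ± 0.12. Of the haemostasis and adhesion genes 3 of 6 fell after carbon ions, Thbd (thrombomodulin) at -1.51 ± 0.03, Procr at -1.18 ± 0.07 and Vcam1 at -1.12 ± 0.06, and none after gamma rays. Hey1 fell to -1.19 ± 0.09 after carbon ions, Ptprb to -1.33 ± 0.07 and Lyve1 to -1.41 ± 0.02. In the opposite direction 1.69% of all measured genes rose after gamma rays and 1.69% after carbon ions. Adm rose by 3.17 ± 0.02 after gamma rays and 3.63 ± 0.09 after carbon ions, and over the unirradiated primary it stood at -1.52 ± 0.21 and -1.07 ± 0.14. Vegfa and Pgf rose after carbon ions by 1.64 ± 0.09 and 1.92 ± 0.08 and stood at 0.85 and 0.54 after gamma rays. Apelin (Apln), a peptide of endothelial tip cells, rose by 2.03 ± 0.04 after carbon ions, and Angpt2 stood at 0.72 ± 0.05.

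Markers of other cells also differed between the metastases. Scgb3a2, a secretoglobin of airway epithelium, was higher by 4.14 ± 0.04 after gamma rays and by 3.96 ± 0.07 after carbon ions. It was the 1 of 10 lung epithelial markers past the rule in each, where 1.69% of all measured genes rose in each. The list medians were -0.06 and 0.05. For Sftpa1, Sftpb, Sftpc, Scgb3a2 and Ager the shared primary was well above background only on arrays that held a metastasis. Medians near 0 are therefore no measure of equal lung content. Pericyte medians were 0.29 and 0.25, with Abcc9 (1.15 ± 0.09) and Kcnj8 (1.42 ± 0.02) higher after carbon ions. Macrophage medians were -0.47 and -0.67 with 2 of 8 lower after gamma rays (Adgre1 and Mrc1) and 1 after carbon ions (Adgre1). Platelet medians were -0.48 and -0.75. Gp9, which the shared primary did not hold above background, and Treml1 fell after carbon ions to -1.40 ± 0.30 and -1.38 ± 0.04. The other measured platelet genes did not pass: Itga2b stood at -0.91, Pf4 at -0.75, Itgb3 at -0.26, Gp1bb at -0.22 and Ppbp at 0.55. Skeletal muscle stood at 0.00 and -0.01 and keratinocyte genes at 0.32 and 0.28. The part of airway cells, pericytes, macrophages and platelets in the endothelial values was not tested.

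Likeness of pattern was measured as the root-mean-square difference of the 5 log2 ratios over the unirradiated primary, among 12915 genes measured in all of them. Genes nearest to Kdr were Ppp1r14a at 0.053, an inhibitor of myosin phosphatase, and Arhgap31 at 0.084, a GTPase-activating protein. Nearest to Flt1 were Lims2 (0.074) and Zfp979 (0.116), and nearest to Ramp2 were Zfp979 (0.116) and Ptprb (0.155). Tie1 was nearest to Morn4 (0.071) and Capn3 (0.072), Pecam1 to Ldb2 (0.084), and Tek to Fam217b (0.100) and Clec5a (0.115). The genes named for Calcrl and Vwf lay further off: Cd36, a fatty acid receptor of capillaries and macrophages, lay 0.612 from Calcrl, and Hsd11b1, the enzyme that activates glucocorticoids, 0.847 from Calcrl and 0.316 from Vwf. Among the 8 genes themselves the nearest pairs were Pecam1 with Tie1 (0.158) and Ramp2 with Flt1 (0.185), and Vwf with Calcrl lay 0.823 apart. The 5 ratios share a control RNA, so likeness describes these arrays alone.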

How the data were processed

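Arrays of Agilent design 014868 were read by Feature Extraction 9.1.3.1 with protocol GE2-v5_91_0806, per the file headers. The intensity values used are the deposited mean signal of each spot and the median of its local background in both channels, not normalized. The deposited log10 ratio of each spot, Cy5 over Cy3 of signals that the software had corrected and dye-normalized, was used as an alternative, and the authors' table of log10 values equalled it within 0.005. No other processing step is given in the sources used here.

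The normexp method with an offset of 50 corrected the background, which pulls ratios of dim spots toward 0, and arrays were normalized by loess in limma 3.58.1 (R 4.3.3, data.table, version 1.17.8), with control and outlier spots at weight 0. Later steps used Python 3.11.15, numpy 2.4.6 and pandas 2.3.3. Ratios were turned by the dyes in the labels, spots of a probe were averaged and the brightest probe stood for its gene. Levels are single-channel log2 signals after loess and Aquantile normalization. Probes were named through RefSeq gene names (assembly GRCm38.p6). Of 41174 probes, an accession named 22944, a symbol 6664 and an earlier symbol 3108, while 8458 kept the name in the file. Genes count as measured if on every array of a comparison at least 1 of the RNAs was well above background. Each array held 45018 spots, 16 to 58 flagged as outliers and none saturated, and 53.8% to 68.8% per channel exceeded background clearly. Between orientations the median SD was 0.107 to 0.129 in the 6 direct comparisons. The 3 slides each held both arrays of 2 dye swaps. The number of arrays limits the precision. The scripts were tested on simulated data.

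The 8 genes and 14 lists (122 genes) were chosen with earlier results of these data known. Named genes are the 8, the 2 highest and the lowest of each list in the unirradiated metastasis over the unirradiated primary, all listed ligands and partners, list genes past the rule in an irradiated primary, and for likeness the 2 nearest genes, of which some are not reported here. Others stand behind counts of 5 or fewer or, as Apln, Ppbp and Scgb3a2 do, were named after their values were seen. The alternatives tried were an offset of 0, the deposited log ratio, median centring, scaling between arrays, the mean of all probes, 2 filters on dim probes and each dye orientation alone.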

Additional observations from a re-analysis of the deposited data

Results flagged for a closer look

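Some probes had mean ratios of opposite sign under the same contrast in primaries and metastases, and some of these lay close to 0. The metastasis values were taken by way of the shared primary. For carbon ions they cannot be told apart from slide. The difference was not tested. With carbon over gamma, Vwf stood at 0.55 in the primaries and -0.55 in the metastases, and its second probe at 0.31 and -0.64. Pecam1 stood at 0.20 and -0.10 and Kdr at -0.02 and 0.13, where the orientations of Kdr in the primaries were -0.04 and -0.01. With carbon over unirradiated, the second Vwf probe stood at 0.19 in the primaries and -1.70 in the metastases, while in the primaries after gamma rays it stood at -0.25. The second Flt1 probe stood at -0.43 in the primary and 0.06 in the metastasis after gamma rays, and at -0.33 and 0.46 after carbon ions. Its orientations in the gamma metastasis were 0.11 and 0.00.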

How the results depend on the processing

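No paired analysis was possible because the labels give every array the replicate number 1 and each condition 1 RNA. The 37 called ratios of the 8 genes kept their sign in all 9 alternatives. All 88 ratios kept it with an offset of 0, Agilent's processed log ratio and scaling between arrays, and 85 did with median centring 86 with the mean of all probes, and 87 and 83 with the first-named RNA in Cy5 alone and Cy3 alone. The 2 filters on dim probes moved no ratio of the 8. The mean of all probes takes in probes at background. With it 6 genes (without Pecam1 and Tek) passed in the unirradiated metastasis over the primary. By the same mean 3 passed in the gamma and 3 in the carbon metastasis over the unirradiated primary. Over its own primary 4 passed in the gamma and 3 in the carbon metastasis. Still by this mean, 2 fell in the carbon over the unirradiated metastasis and 0 in carbon over gamma. With an offset of 0, 8 genes passed in the carbon metastasis over its own primary. In the gamma over the unirradiated metastasis 2 genes fell with the processed log ratio, median centring or scaling between arrays. There the separate orientations gave 1 to 3. In carbon over gamma 0 fell with median centring or scaling. With median centring 7 genes (without Tie1) passed in the unirradiated and 4 (without Ramp2) in the carbon metastasis over the unirradiated primary, 7 (without Tie1) in the gamma metastasis over its own primary, and 3 (without Tek) fell in the carbon over the unirradiated metastasis. Medians of all measured genes then moved to -0.103 and -0.106 in the gamma and carbon metastases over the unirradiated primary. Over their own primaries these medians moved to -0.187 and -0.184. In the unirradiated metastasis the median moved to -0.108 with the processed log ratio. Dim probes are limited by background, and their ratios are compressed by the offset. The cause of these shifts was not tested.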
